A study of Homo sapiens with 4 samples.

Results

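On chromosome 13, the outermost 2.17 Mb of the long arm were set against the remainder in a list of regions from ATAC-seq. This assay marks accessible DNA through the Tn5 transposase, which inserts sequencing adapters where it can reach the DNA. The members were all listed summits on chromosome 13 (hg19) at or beyond position 21200000, and the arm was divided at position 113000000 into a distal part of 2.17 Mb, which ends with the chromosome at 115169878, and the remaining 91.8 Mb. The dividing position was chosen by the density of summits itself, so the densities below are a description with no test. A summit is a point of highest signal, and a region, a distinct start and end, can hold several. The arm held 2087 of the 197823 regions of the list and 3157 of its 371521 summits. Of these, 883 regions with 1528 summits were distal and 1204 regions with 1629 summits lay in the rest, and no region had summits in both. A further 94 summits of the chromosome lay before the first limit and were left out by the same rule.

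The cells, T47D-MTVL, come from the breast cancer line T47D and carry 1 integrated copy of a luciferase gene under the MMTV promoter. They expressed an shRNA aimed at multiple variants of linker histone H1 (multiH1sh, 2 samples) or a random shRNA (RDsh, the control, 2 samples). The labels do not say whether the numbered replicates were separate cultures. There was 1 list for the 4 samples, named 225sh against RDsh in its track line, and 225sh is taken to be the multiH1 knock-down, which the labels do not state. It holds no value per sample, so nothing below is a comparison of knock-down with control and no spread between replicates can be given. The name under which the list was deposited calls it differential between multiH1sh and RDsh. Whether regions accessible in both groups were left out was not tested, so the densities below are those of this list.

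Linker histone H1 binds the nucleosome where the DNA enters and leaves, and is known for its part in compacting chromatin. Chromosome 13 is known as one of the most gene-poor human autosomes, with long gene deserts in the middle of its long arm and a gene-dense end. In the RefSeq gene table (GRCh38.p14), the last protein-coding genes of the arm include, in order, MCF2L, F7, F10, PROZ, PCID2, CUL4A, LAMP1, GRTP1, ADPRHL1, DCUN1D2, TFDP1, GRK1, ATP4B, TMEM255B, GAS6, RASA3, CDC16, UPF3A and CHAMP1. F7 and F10 encode coagulation factors, and PROZ a vitamin K-dependent plasma protein of the same pathway. CUL4A is the scaffold of a ubiquitin ligase, TFDP1 the dimer partner of E2F transcription factors, and CDC16 a subunit of the anaphase-promoting complex. LAMP1 is a lysosomal membrane protein, GAS6 a ligand of the TAM receptor kinases, RASA3 a GTPase-activating protein for Ras-type proteins and UPF3A a factor of nonsense-mediated mRNA decay. Before them in this order lie IRS2, an adaptor of insulin signalling, and COL4A1 and COL4A2, the collagen IV chains of basement membranes. The table is of another build than the list, so the names give only the order of genes, and none was assigned to a region.

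The distal part was far more densely listed than the rest of its arm. It made up 2.31% of the length of the arm and held 48.4% of its summits (95% Wilson interval 46.7 to 50.1%, counting error only) and 42.3% of its regions. There were 704 summits per Mb in the distal part and 17.7 in the rest, a ratio of 39.7. Counted as regions, the densities were 407 and 13.1 per Mb, a ratio of 31.0. Regions covered 15.6% of the distal length and 0.373% of the rest, although the covered lengths were nearly equal at 338.2 kb and 342.2 kb. The density differed more than any measure of the single region described below. This order was favoured in advance, because the dividing position was chosen by the density.

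The dividing position fell in a stretch of 11.6 kb without regions. The nearest summit below it was at 112997259, with 17 reads, and the nearest beyond it at 113008911, with 19 reads. At the other limit the nearest summits were at 21141481 with 23 reads, left out, and at 21278160 with 12 reads, kept. The read number of a summit, here its pileup, was recovered from the fold enrichment that the authors list for it. The solved summits of both parts shared 1 background of 2.01 reads, and a fold is the pileup plus 1 over this background plus 1. It is therefore scaled to the same level everywhere, and not to the level in the control cells at that place.

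Along the arm the count of summits changed in steps rather than only once. The windows of 1 Mb that start at 113000001 and 114000001 held 669 and 848 summits, the 2 highest counts of the arm. The next 2 windows towards the centromere, which start at 112000001 and 111000001, held 225 and 255, and the window that starts at 110000001 held 87. Before it, the windows that start at 109000001 and 108000001 had 12 and 11 summits. Away from the end, the windows that start at 99000001 and 100000001 stood out with 108 and 106 summits. The median window of the rest held 7 summits, and 10 of its 92 windows held none.

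**Figure D1:**
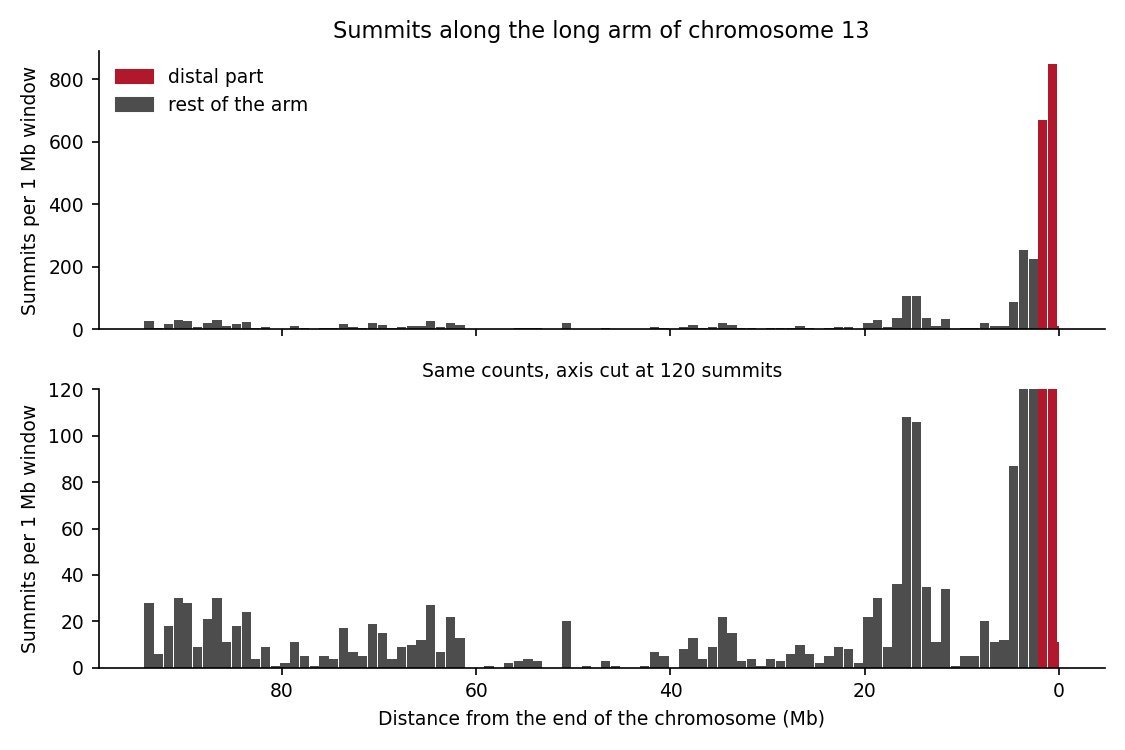
Number of summits in windows of 1 Mb along the long arm of chromosome 13, against the distance from the end of the chromosome in Mb, with the distal part in red and the rest in grey; the lower panel shows the same counts with the axis cut at 120 summits, and the first window holds only the part from 21200000 on. The tallest bars, 669 and 848 summits, are the 2 full distal windows, and a smaller rise of 108 and 106 summits lies about 15 Mb from the end.

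Equal lengths gave the same order. The rest of the arm was divided, from the dividing position backwards, into 42 stretches as long as the distal part. They held from 0 to 507 summits with a median of 20, against 1528 in the distal part. The highest of them, with 507, was the one that adjoins it. In windows of 100 kb, 15 of the 20 densest of the arm were distal. At least 50 summits were found in 12 of 22 distal windows and in 1 of 918 windows of the rest, whereas 565 windows of the rest had none.

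Within the distal part the summits were unevenly spread. The densest window of 100 kb, from 114500001 to 114600000, held 159 summits in 70 regions. It was followed by the windows from 113700001 to 113800000 with 152 summits, from 113600001 to 113700000 with 145, from 114800001 to 114900000 with 134 and from 114700001 to 114800000 with 123. The 8 densest of the 22 windows held 66.7% of the distal summits. They formed 4 peaks, from 113500001 to 113800000, from 114000001 to 114100000, from 114400001 to 114600000 and from 114700001 to 114900000, a grouping made after the values were seen. Between these peaks the windows held 26 to 72 summits.

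At a finer scale, 167 of 217 distal windows of 10 kb held a summit, with a median of 5 and a highest count of 34. That count was reached from 114430001 to 114440000, in 8 regions, followed by 32 summits in 10 regions from 114520001 to 114530000 and 31 in 10 regions from 113540001 to 113550000. In the rest 693 of 9180 such windows held a summit. The highest count there, 32 from 110430001 to 110440000, lay in only 4 regions. The outer full window of 1 Mb was the denser, and 26.3% of its summits had 20 reads or more, against 20.6% in the inner one.

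The sparsest distal windows lay at the margins and in 1 trough. No summit was listed from 115100001 to the end of the chromosome, and 11 were listed from 115000001 to 115100000, where the last region of the arm ended at 115080301. The windows from 113000001 to 113100000 and from 114600001 to 114700000 held 26 each. Most of the latter window, and of that from 114300001 to 114400000 with 38 summits, was taken up by the 2 longest distal stretches without regions. These ran from 114634423 to 114740229 (105.8 kb) and from 114325698 to 114427908 (102.2 kb). The third longest stretch was 46.3 kb. Whether undetermined sequence of the assembly lies in the 2 stretches was not tested, because no sequence of hg19 was used. Without their length the distal density was 779 summits per Mb, or 43.9 times that of the rest.

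**Figure D2:**
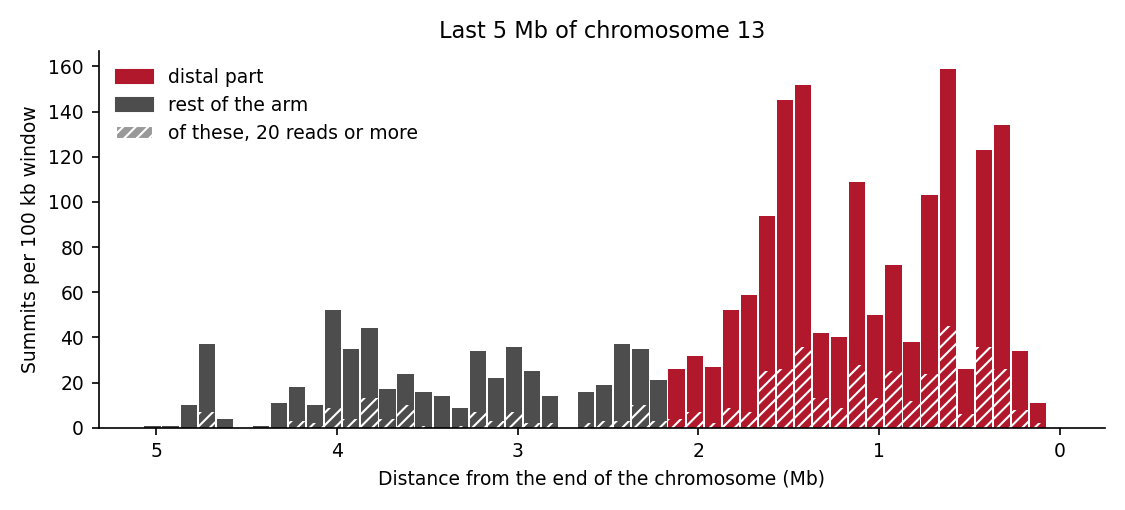
Number of summits in windows of 100 kb over the last 5 Mb of chromosome 13, against the distance from its end in Mb, with distal windows in red, windows of the rest in grey, and hatching for the summits of 20 reads or more. Distal counts reach 159, while the windows of the rest shown here reach 52, and the share of hatched summits varies less than the counts.

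The 5 widest distal regions differed in how many summits they held. The widest, from 114431506 to 114435356 (3851 bp), also held the most summits, 20, with pileups from 10 to 50 reads and a median of 17.5. The region from 113761562 to 113765289 (3728 bp) held 12 summits with pileups from 10 to 84 reads. By contrast, the region from 113441273 to 113444636 (3364 bp) held only 4 summits, of 15 to 45 reads, and that from 114088565 to 114091892 (3328 bp) also 4, of up to 42 reads. The fifth widest, from 114057587 to 114060288 (2702 bp), held 11 summits with a highest pileup of 31 reads. Width and number of summits therefore did not rank these regions alike. Many summits were also found in the region from 113547814 to 113550241, with 14, all between 13 and 35 reads, and in that from 114540808 to 114543131, with 12.

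The strongest distal summit had 105 reads, at 114579253 in a region of 1139 bp from 114578793 to 114579931. Its fold in the authors' list was 35.2, and a neighbour in the same region had 90 reads. The region from 114753452 to 114755557 held 5 summits, of which the highest had 98 reads, a fold of 32.9, and the lowest 21. Next were the region from 113761562 to 113765289 with 84 reads, the region from 113733909 to 113734755 with 69 and the region from 113967835 to 113969659 with 68. Each of these 5 regions had another region at most 0.369 kb away. The first 2 lie in windows of 159 and 123 summits, but the fifth lies in a window of only 40.

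Summit pileups were slightly higher in the distal part than in the rest of the arm. The median was 16 reads in the distal part, 14 in the rest and 15 over the whole list. The corresponding median folds in the authors' list were 5.65, 4.99 and 5.32. Pileups of 20 reads or more were found in 363 of the 1528 distal summits (23.8%, 95% Wilson interval 21.7 to 25.95%). In the rest they were found in 325 of 1629 (19.95%, 18.1 to 21.96%). The difference was 3.81 percentage points (95% interval 0.923 to 6.69), with intervals that cover counting error only, since summits of 1 list share their libraries and are not independent. At 15 reads or more the difference was 13.2 points, 59.8% against 46.6%. At 30 reads or more it was 0.578 points, 6.35% against 5.77%, with an interval from -1.09 to 2.27 that includes 0. The difference at 20 reads also depended on the limits of the parts: it was 2.05 points (-0.855 to 4.92) with the arm divided 1 Mb nearer the centromere, and 2.51 (-0.762 to 5.72) without the last 2.6 Mb of the rest. At 50 reads or more stood 21 distal summits (1.37%, 0.901 to 2.09%) and 10 of the rest (0.614%, 0.334 to 1.13%), with intervals that overlap.

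Against the whole list the distal part had no single direction. Of all listed summits 26.5% had 20 reads or more, above the distal 23.8%, but at 15 reads or more the list had 58.1% and the distal part 59.8%. At 30 reads or more the list had 6.22% and the distal part 6.35%, and at 50 reads or more 1.44% and 1.37%. Counting regions, each with the pileup of its strongest summit, 25.6% of distal regions had 20 reads or more (22.8 to 28.6%), against 21.9% over the whole list and 16.9% in the rest of the arm (14.9 to 19.1%). Among the 21 full distal windows of 100 kb the share ran from 7.41 to 34.7%, and the median pileup from 14 to 18 reads. The highest share was in the window from 114200001 to 114300000, with 72 summits. The densest window, with 159, had 28.3%. Over these 21 windows the number of summits and the share of 20 reads or more had a Spearman correlation of 0.32 (Pearson 0.23), and the number of summits and the median pileup one of 0.52 (Pearson 0.35). Both are given as a description of windows that share all their libraries.

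**Figure D3:**
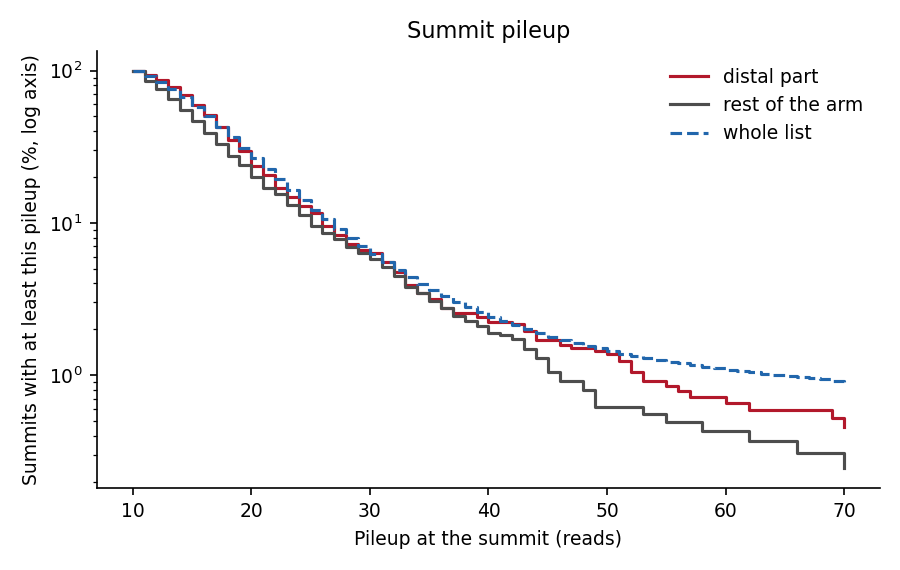
Share of summits with at least the pileup on the horizontal axis, in reads, for the distal part (red), the rest of the arm (grey) and the whole list (dashed blue), on a logarithmic vertical axis in percent. The distal curve lies above that of the rest at 15 reads (59.8 against 46.6%) and 20 reads (23.8 against 19.95%), nearly meets it at 30 reads (6.35 against 5.77%) and separates again at 50 reads (1.37 against 0.614%), where only 21 and 10 summits are left. At 50 reads the whole list has 1.44%, close to the distal value.

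Distal regions were wider and more often held several summits. Their median width was 245 bp (quartiles 154 and 413.5 bp), against 168 bp (128 and 288 bp) in the rest and 208 bp over the whole list. The ratio of the medians was 1.46 (1.30 to 1.63 from the binomial intervals of the 2 medians). Among regions whose highest summit had 20 reads or more the medians were 538 and 433 bp, a ratio of 1.24 with an interval from 0.814 to 1.57 that includes 1. Several summits were found in 290 distal regions (32.8%, 95% Wilson interval 29.8 to 36.01%) and in 206 regions of the rest (17.1%, 15.1 to 19.3%), against 28.2% over the whole list. The mean number of summits per region was 1.73 in the distal part and 1.35 in the rest, against 1.88 over the whole list. Regions with 5 summits or more numbered 44 in the distal part (4.98%) and 27 in the rest (2.24%), against 6.62% over the whole list. They held 20.3% of the distal summits and 12.03% of those of the rest, against 32.5% over the whole list. When only summits of 20 reads or more were counted, the mean number per region was 1.61 in the distal part and 1.60 in the rest.

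Regions with a higher pileup were also wider, so widths were set side by side in classes of the highest pileup. At 10 to 14 reads the median width was 176 bp in 365 distal regions and 145 bp in 719 regions of the rest. At 15 to 19 reads it was 272 bp and 200.5 bp. At 20 to 29 reads the medians were 400.0 and 358 bp, and at 30 reads or more 1061.5 and 923 bp, in 60 and 62 regions. The distal median was thus the larger in each of the 4 classes, with quartiles that overlapped in all of them. Several summits were found in 38.7% of distal regions of 15 to 19 reads (33.3 to 44.4%) and in 22.3% of those of the rest (17.9 to 27.6%). This was the only class in which the 2 intervals did not meet.

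**Figure D4:**
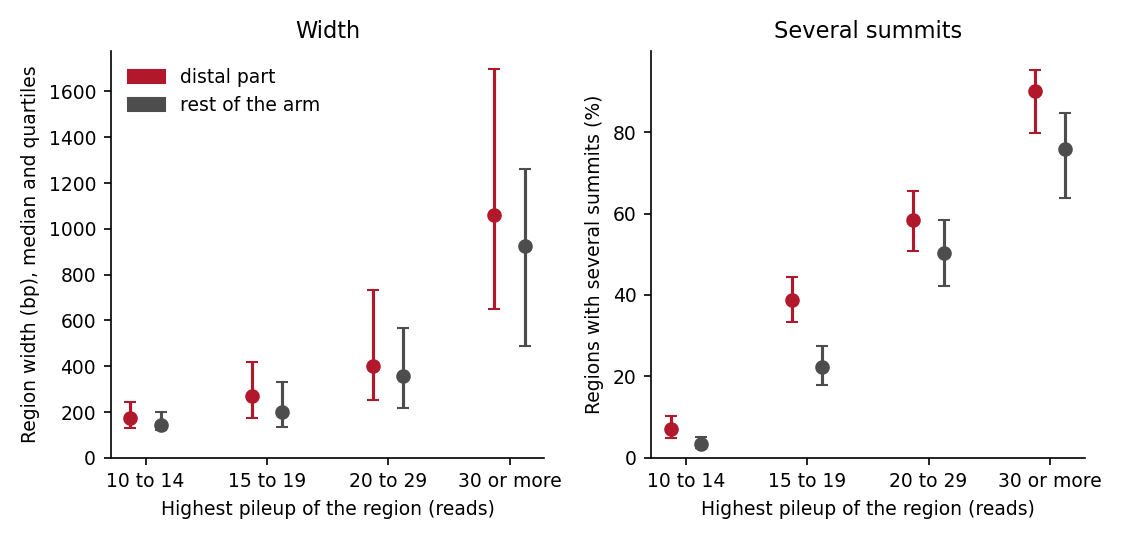
Width of regions in bp (left, median with quartiles as bars) and share of regions with several summits in percent (right, with 95% Wilson intervals as bars), by the highest pileup of the region in reads, for the distal part (red) and the rest of the arm (grey). Distal medians are larger in all 4 classes, from 176 against 145 bp to 1061.5 against 923 bp, and the intervals on the right are apart at 15 to 19 reads.

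Only 4 of the 42 stretches as long as the distal part held 50 regions or more, so that these measures could be set beside the distal values. Their median widths ran from 156 to 180 bp, their shares of regions with several summits from 13.7 to 18.5%, and their shares of summits of 20 reads or more from 5.08 to 21.9%. The distal value was above all 4 in each of these 3 measures. Of all 41 stretches with a region, 7 exceeded the distal median width, 9 its share of regions with several summits and 16 its share of summits of 20 reads or more, each of them with at most 31 regions.

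Distal regions lay close together, a measure bound to the density by which the dividing position was chosen. The median distance from one region to the next was 518.5 bp in the distal part and 6093 bp in the rest. Of the distances, 65.6% were within 1 kb in the distal part and 30.3% in the rest, so that near neighbours were found in the sparse arm too. At the other end of the scale the rest had 208 distances of over 100 kb and 15 of over 1 Mb, which added up to 24.7 Mb or 26.9% of its length. The longest ran from 69098301 to 72439615 (3.34 Mb). It was followed by those from 53776063 to 56545764 (2.77 Mb), from 64652734 to 66985552 (2.33 Mb), from 61989520 to 64312294 (2.32 Mb) and from 92051018 to 93747152 (1.70 Mb). The first 4 lie between 53 and 73 Mb, in the middle of the arm.

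The stretch from 110400001 to 113000000, next to the distal part and delimited after the values were seen, was intermediate in density. With 551 summits it held 33.8% of the summits of the rest in 2.83% of its length. Its density was 212 summits per Mb, 17.5 times the 12.1 of the arm before it (the inner arm), and the distal density was 3.32 times its own. In shape its regions were closer to those of the inner arm than to distal ones. The median width was 178 bp, against 163 bp in the inner arm and 245 bp in the distal part. The share of regions with several summits was 17.6% (14.2 to 21.7%), against 16.9% and 32.8%. The share of summits of 20 reads or more was 17.4% (14.5 to 20.8%). It was 21.24% (18.9 to 23.8%) in the inner arm and 23.8% in the distal part. This stretch was thus the lowest of the 3, but its interval overlaps that of the inner arm. Its highest summit had 48 reads, so 0 of its 551 summits (0 to 0.692%) had 50 reads or more. In the inner arm 10 of 1078 summits did (0.928%, 0.505 to 1.70%), and these 2 intervals overlap. The stretch from 112353365 to 112510249 (156.9 kb) held no region, and undetermined sequence was not tested there either. With this stretch left out of the rest, the distal density was 58.3 times that of the inner arm.

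Few windows of the rest came near distal counts, and most of these lay in this same stretch. Its windows from 111100001 to 111200000 (52 summits), from 111300001 to 111400000 (44), from 110400001 to 110500000 (37) and from 112700001 to 112800000 (37) were among the 5 densest of the rest. The other was that from 100600001 to 100700000 with 42. The 37 summits of the window that starts at 110400001 lay in only 8 regions. One of these, from 110435156 to 110438680 (3525 bp), held 22 summits of 11 to 27 reads, more than any distal region. The region from 111364745 to 111367473 followed with 17 summits of 10 to 32 reads.

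Single regions of the rest were as wide and as strong as those of the distal part. The widest of the whole arm lay in the sparse middle, from 64312295 to 64316272 (3978 bp), with 9 summits of 18 to 37 reads. Others were the regions from 47038393 to 47041783 (3391 bp, 5 summits), from 81278609 to 81281943 (3335 bp, 12 summits of 18 to 48 reads) and from 64414524 to 64417525 (3002 bp, 5 summits). Regions of 2 kb or more numbered 11 of 883 in the distal part and 10 of 1204 in the rest. Over the whole list they numbered 2995 of 197823. Further regions with many summits lay from 100632020 to 100634778, with 11, and from 52026153 to 52027901, with 10. The 5 highest summits of the rest had 29126, 5903, 147, 102 and 69 reads, each in its own region. Regions of 2 kb or more were thus found in both parts, whereas no distal summit exceeded 105 reads.

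Among the long-arm ends of chromosomes 1 to 22 and X, that of chromosome 13 was of middling density but stood out against its own chromosome. Ends were taken here as the last 2.17 Mb before the last listed region, which for chromosome 13 gives 1545 summits or 712 per Mb. This was rank 11 of 23, with a median of 607 and a range from 87.1 to 2733. The rest of chromosome 13, at 18.2 summits per Mb, ranked 21 of 23. The ratio of the end to the rest was 39.1, second to chromosome X with 41.3, whereas the median ratio was 8.22. The rest of a chromosome here held all its other listed summits, those of a short arm included, so the denominators are not alike. The length of 2.17 Mb follows from the dividing position, which was chosen by the density on chromosome 13. A high ratio for chromosome 13 was therefore favoured in advance. Chromosome 18, with 16.2 summits per Mb in its rest, had a ratio of 12.6.

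The ends nearest in density were those of chromosome 11 with 743 summits per Mb and of chromosome 5 with 607. Their shares of summits of 20 reads or more were 27.1% (24.9955 to 29.3%) and 22.9% (20.7 to 25.3%), against 23.7% (21.6 to 25.9%) at the end of chromosome 13. Their median widths were 234 and 231.5 bp, against 245 bp, and several summits were found in 34.6% and 33.04% of their regions, against 32.4%. The end of chromosome X, with the highest ratio, had a lower share of 20 reads or more, 13.9% (11.7 to 16.4%), and a median width of 208 bp. The densest ends were among those with the highest shares, but density and this share did not rank all ends alike. The 4 densest, of chromosomes 8, 9, 16 and 17, had shares of 43.1 to 53.98%, and the fifth, of chromosome 20, had 32.4%. The sparse ends of chromosomes 4 and 1, at 87.1 and 89.4 summits per Mb, had 39.2 and 34.02%, from only 189 and 194 summits. That of chromosome 19, at 87.6 summits per Mb, had 12.6%.

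**Figure D5:**
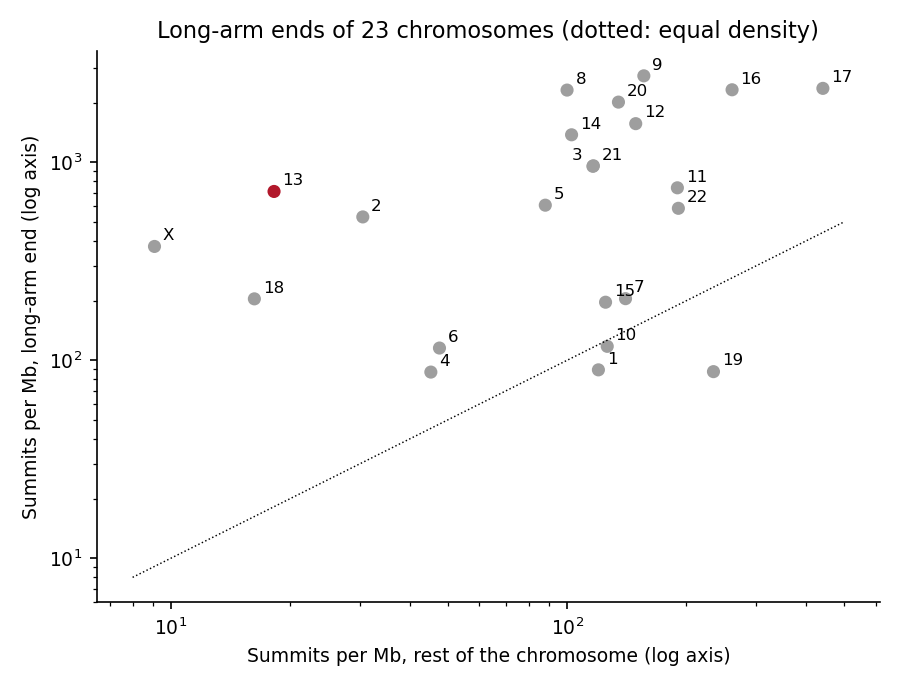
Summits per Mb in the last 2.17 Mb before the last listed region of the long arm against summits per Mb in the rest of the same chromosome, both on logarithmic axes, for chromosomes 1 to 22 and X, with chromosome 13 in red and a dotted line of equal density. Chromosome 13 (712 against 18.2 per Mb) lies with X and 18 among the sparsest chromosomes and in the middle of the ends.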

How the data were processed

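ATAC-seq libraries came from 75000 harvested cells per sample, per the labels' protocols. Per the submitters' processing notes, alignment was with Bowtie 1.1.2 against hg19, and MACS2 was the peak caller. Its version and options, any removal of duplicates and any pooling of replicates are not stated in these sources. The fold enrichment that the authors deposited for a summit is a ratio of its signal to a background. The deposited p-values and q-values are −log10 values of the same summit, and the deposited score is 10 times −log10 p without its decimals.

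Pileups were recovered from the fold, taken as (pileup + 1) / (background + 1), and the p-value, taken as a Poisson upper tail. The 3155 summits of the arm that could be solved shared 1 background of 2.01 reads. With it, all 3157 folds gave whole pileups (tolerance 0.02 reads). The solver was tested on simulated data of 485 lines and recovered 100% of them. This background is the only measure of depth available, and summits under 10 reads are not listed.

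Positions are hg19 and counted from 1. A region belongs to the part that holds its highest summit. Shares carry Wilson intervals, and the interval of a difference was built from them. These intervals are over summits or regions of 1 list, which are not independent, so they cover counting error only. Pileups are reads from PCR that carry no molecular identifiers and do not count molecules. Medians carry binomial intervals. No test between groups was run, since no value per sample is listed. The windows, regions and stretches named are those with the highest counts, widths, pileups or lengths (usually 5 of each). The members and all lists were chosen with earlier results of these data known. Gene lists planned for annotation in hg19 were not analysed here, and no sequence is printed for the same reason. Python 3.11.15, numpy 2.4.6, pandas 2.3.3, scipy 1.17.1 and statsmodels 0.14.6 were used.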

Additional observations from a re-analysis of the deposited data

How the results depend on the processing

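The ratio of summit densities was 39.7 and became 35.8 with the arm divided 1 Mb nearer the centromere, 29.7 with it divided 1 Mb nearer the end, 31.0 with each region counted once, 47.3 with only summits of 20 reads or more, 43.9 without the 2 long distal stretches free of regions and 58.3 without the adjoining stretch of intermediate density in the rest. The difference in the share of summits of 20 reads or more, 3.81 percentage points, became 8.73 with each region counted once, 13.2 at 15 reads and 0.578 at 30 reads. It was 2.05 with the division nearer the centromere and 2.51 without the intermediate stretch. The intervals of the last 3 values include 0. The ratio of summits per region, 1.28, became 1.18 with the division nearer the centromere and 1.00325 with only summits of 20 reads or more, with an interval that includes 1. The ratio of median widths, 1.46, became 1.24 in regions of 20 reads or more, with an interval that includes 1, and 1.21 in regions with 1 summit. For these shifts the cause was not tested. Of the 26 alternative values 13, among them the 2.05 and 2.51, lay within the intervals of the reported ones, and none reversed a direction. Those that leave out the intermediate stretch or the 2 distal stretches were chosen after the data were seen. For the density ratio the absence of a reversal says little, because the dividing position was chosen by that density. No paired analysis was possible because values per sample are not listed, which also kept single replicates from being left out. Regions under 10 reads over a background of 2.01 are not listed, and the list is named as differential against RDsh. An empty window therefore does not show closed chromatin. Copy number, and whether reads can be placed in a window, were not measured here.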

Other observations

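The 2 strongest summits of the arm stood apart from everything else on it. One, at 110076612 in a region of 259 bp from 110076470 to 110076728, had 29126 reads, and the other, at 56545810 in a region of 125 bp from 56545765 to 56545889, had 5903. They were the only summits of the arm with 1000 reads or more, and the next had 147. Each was the single summit of its region, with the nearest other region 53.3 kb and 1521 kb away. The second splits what would otherwise be a longer stretch without regions: 2.77 Mb before it and 1.52 Mb after it were without any. No distal summit exceeded 105 reads. The source of these reads was not tested.

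Inside regions with several summits the spacing of neighbouring summits was the same in both parts to within 1 bp. The median was 159 bp in the distal part (645 pairs, quartiles 117 and 231 bp) and 158 bp in the rest (425 pairs, quartiles 115 and 224 bp). The larger width of distal regions thus went with more summits at a like spacing. Regions with 1 summit were wider in the distal part too, with a median of 183 bp against 151 bp. By the highest pileup, these medians were 170 against 143 bp at 10 to 14 reads and 211 against 166 bp at 15 to 19 reads. At 20 to 29 reads they were 234 against 218 bp. At 30 reads or more the order was reversed, 271.5 against 432 bp, in only 6 and 15 regions.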
